A study of Drosophila melanogaster with 3 samples.

Results

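Translation control genes set how readily messenger RNAs enter the ribosome, and 6 of them were described here at the binding sites of a GFP-tagged chromatin protein, Lpt. The 6 genes were Lk6, larp, Thor, Tor, S6k and eIF4E1. They were chosen from earlier results of the same peak lists, so the positions and signals below are a description and were not tested. They are 6 of 13945 protein-coding genes on 6 chromosome arms. With 5 kb added on each side, they held 14 of the 6110 peak summits in the authors' list thresholded for reproducibility.

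Lpt works in the COMPASS-like complex of the histone H3 methyltransferase Trr, which acts at enhancers and promoters. The study immunoprecipitated it with an anti-GFP antibody from a transgenic Drosophila melanogaster line that stably carries Lpt with GFP at its C terminus. The material was whole white prepupae, males and females together, so sites from all tissues are mixed and no cell type can be assigned. There was 1 group of 3 biological replicates, which all carry the transgene, and an untagged control was not analysed here. Signal at open chromatin without Lpt-GFP was therefore not measured.

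Cap-dependent translation starts when eIF4E1 binds the cap of a messenger RNA and recruits a scaffold and a helicase. Thor, the 4E-BP of flies, blocks that step by binding eIF4E1, and the kinase Tor, in the complex TORC1, releases the block by phosphorylating Thor. S6k is a further substrate of TORC1 and promotes growth. The protein larp is the fly relative of mammalian LARP1, an RNA-binding protein downstream of TORC1, and Lk6 is the fly Mnk-type kinase that phosphorylates eIF4E1. TORC1 responds to amino acids and insulin, and white prepupae have stopped feeding.

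The sequences at the strongest site of Lk6, larp and S6k, and at the start sites of Tor and Thor, are shown first because the results turn on these 5 places. They are dm6 sequence on the strand of the gene, 5′ to 3′. The first 4 reach 100 bp to each side of a summit, or for Tor of the middle between 2 replicate summits. The Thor stretch is the 108 bp just upstream of the transcription start site (TSS).
Lk6 strongest peak, chr3R:11760963-11761163, minus strand: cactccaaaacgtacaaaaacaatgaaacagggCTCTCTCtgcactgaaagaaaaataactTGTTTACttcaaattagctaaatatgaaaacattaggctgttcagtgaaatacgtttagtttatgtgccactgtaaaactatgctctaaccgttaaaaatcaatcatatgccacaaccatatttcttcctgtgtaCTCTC
larp strongest peak, chr3R:28326481-28326681, minus strand: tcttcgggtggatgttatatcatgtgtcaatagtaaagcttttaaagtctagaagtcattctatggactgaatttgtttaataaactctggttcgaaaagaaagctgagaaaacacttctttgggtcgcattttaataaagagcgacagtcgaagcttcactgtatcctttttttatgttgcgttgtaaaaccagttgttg
S6k strongest peak, chr3L:5808213-5808413, minus strand: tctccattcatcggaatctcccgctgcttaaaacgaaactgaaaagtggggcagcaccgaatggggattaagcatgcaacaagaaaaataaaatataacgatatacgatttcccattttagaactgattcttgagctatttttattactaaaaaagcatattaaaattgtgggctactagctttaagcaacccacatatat
Tor upstream region, chr2L:13004158-13004358, plus strand: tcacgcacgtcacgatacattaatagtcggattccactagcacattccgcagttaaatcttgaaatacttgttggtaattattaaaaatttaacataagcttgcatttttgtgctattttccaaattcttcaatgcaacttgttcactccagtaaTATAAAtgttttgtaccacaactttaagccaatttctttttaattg
Thor upstream region, chr2L:3478326-3478433, plus strand: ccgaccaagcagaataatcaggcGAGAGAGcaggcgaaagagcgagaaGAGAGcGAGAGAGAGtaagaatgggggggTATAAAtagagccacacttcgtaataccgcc
Capitals mark matches, on either strand, to 11 short motifs. The GAGA factor repeat was searched as GAGAG, and it reads CTCTC on the other strand. Overlapping copies run together in the print. TGTTTAC is the reverse complement of the FOXO site GTAAACA, and TATAAA is the TATA box.

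Lk6 and larp held the strongest peaks of the 6 genes, and these had nearly equal signal in every list. The IDR list (irreproducible discovery rate, a procedure that compares peak ranks between replicates) ran in signal from 109.514 to 1912, with a median of 170. It held exactly the 6110 strongest peaks of the list pooled from all replicates. A place in it alone does not show a strong peak in every replicate. Signal is the authors' enrichment value of a peak within its own list. In it the Lk6 peak had a signal of 1461 and rank 12, and the larp peak had 1435 and rank 13. Only 8 and 9 coding genes, respectively, had a peak at least as strong within 1 kb of a TSS, with the gene itself counted. The neighbours in the ranking that also lay within 1 kb of a coding TSS were at CG18549 above (rank 9) and at Chro below (rank 14), a gene for a chromodomain protein of interphase chromosomes.

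Lk6 lies on the minus strand of 3R, at 11750931 to 11764457, and has 2 annotated TSSs. Its strongest peak spanned 11760875 to 11761290, with the summit at 11761063. The summit was in an intron, 984 bp upstream of the inner TSS, so it fell just inside the 1 kb limit for a TSS summit. The outer TSS had none that close. Replicate 1 gave a signal of 422 (rank 17), replicate 2 gave 608 (rank 10) and replicate 3 gave 425 (rank 18), a mean of 485 ± 106 (SD, n = 3). The replicate summits lay within 26 bp of each other. Divided by the median of its own list, the signal was 22.8, 24.3 and 25.5, so replicate 2 no longer stood above the other two. The mean on that scale was 24.2 ± 1.35 (SD, n = 3), whereas the SD of the deposited signals includes the difference in scale between the lists.

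A weaker Lk6 summit (signal 165, rank 3214) stood 203 bp further upstream. Its peak covered nearly the same bases, 11760875 to 11761294, and the summit was close to the upstream edge. The replicate peaks with the nearest summit to it had signals of 54.5, 94.2 and 17.8, at ranks 3036, 2056 and 12672. Replicate 3 listed it far below the other two. Outside the IDR list, the pooled list of all replicates gave Lk6 8 more summits. The strongest of these (rank 6411, signal 106) lay 787 bp downstream of the inner TSS, also in an intron.

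The window at the strongest Lk6 summit held 3 matches of the GAGA factor repeat and 1 of the FOXO site. Among the windows of all IDR peaks, 30.6% held the GAGA factor repeat and 4.39% held the FOXO site. GAGA factor is a DNA-binding protein that keeps promoters accessible, and foxo is the transcription factor that insulin signalling keeps out of the nucleus. A match is a run of letters, and binding of either factor was not measured.

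**Figure D1:**
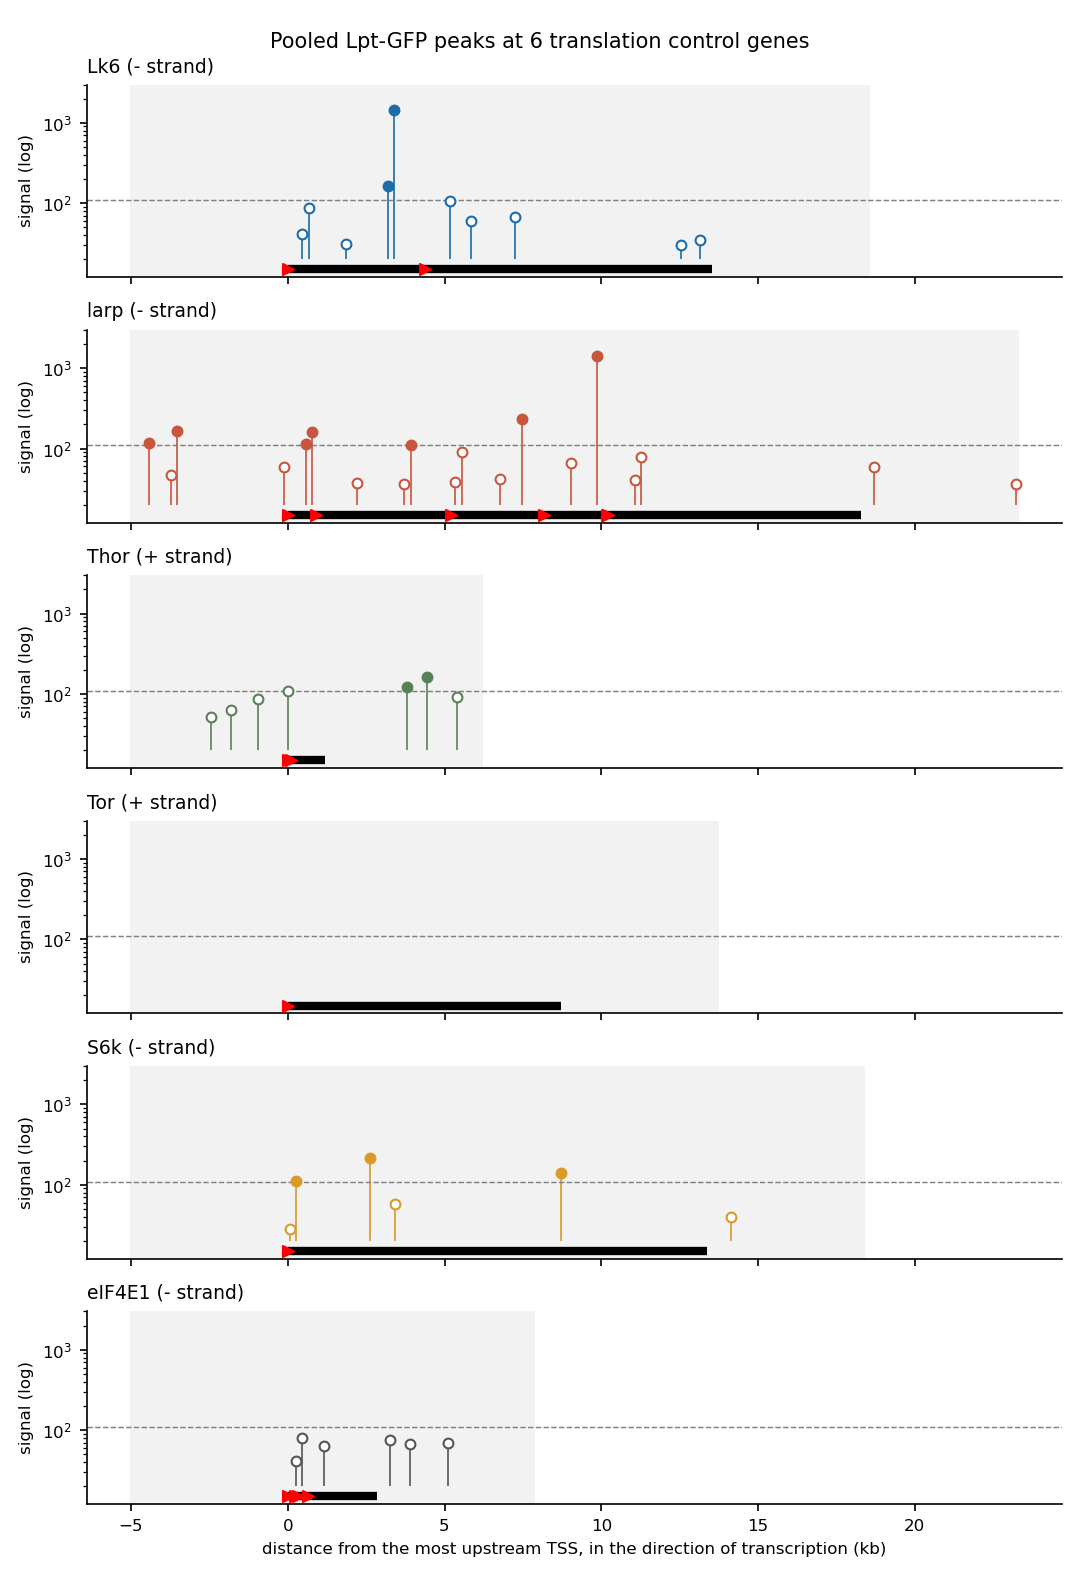
Pooled peaks at the 6 genes, by distance in kb from the most upstream TSS in the direction of transcription (x) and signal on a log scale (y). Filled circles are IDR peaks, open circles are pooled peaks outside the IDR list, the dashed line is the lowest IDR signal (109.514), black bars are gene bodies, red triangles are TSSs and grey marks the gene with 5 kb each side. Lk6 and larp each hold 1 tall peak, with signals of 1461 and 1435, while Tor holds no pooled peak.

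larp, on the minus strand of 3R at 28318162 to 28336440, had the most summits. It held 7, and 1.25% of coding genes held as many or more in the same kind of span. The gene is long (18.3 kb, against a median of 2166 bp for coding genes) and has 6 TSSs (median 1), and the part of either in this count was not tested. Its strongest peak, at 28326379 to 28326849, had the summit at 28326581, in an intron and 317 bp upstream of the nearest TSS. Signals were 416, 602 and 409 in replicates 1, 2 and 3, at ranks 20, 12 and 22, a mean of 476 ± 110 (SD, n = 3), or 23.7 ± 1.10 list medians. The replicate summits lay within 15 bp of each other. None of the 11 motifs occurred in its window, in contrast to the Lk6 window of almost the same signal.

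Other larp TSSs had weaker summits. The summit at 28328979 (signal 236, rank 1742) lay 696 bp upstream of a TSS and was listed with signals of 90.3, 81.1 and 60.8 in the 3 replicates. All 3 placed it among their strongest 6110 peaks, the number of IDR peaks. The summit at 28335662 (signal 162, rank 3314) lay 121 bp upstream of a TSS near the 5′ end of the gene. The strongest overlapping peaks there had signals of 62.2, 42.9 and 64.5, at ranks 2428, 7695 and 1911. The summit of the replicate 2 peak was 183 bp away. In replicate 2 the peak with the nearest summit had a signal of 31.1 at rank 11716. A neighbour 203 bp off, at 28335865, was weaker in the IDR list (signal 115, rank 5683) and overlapped it, so the pair is a single region. The 7th summit, at 28332522 (signal 112, rank 5916), was 1304 bp upstream of a TSS in an intron, close to the end of the list. Its replicate signals of 32.9, 31.5 and 33.6 stood at ranks 6947, 11550 and 5127 of lists that differ in scale. Replicate 3 alone had it among its strongest 6110.

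The remaining larp summits were in the 5′ flank and lay nearer to the starts of other genes. The one at 28339975 (signal 166, rank 3181) was 210 bp upstream of the TSS of Gfat2, which encodes an enzyme of hexosamine synthesis. Its replicate signals were 39.6, 73.1 and 55.2. The one at 28340860 (signal 119, rank 5409) was inside an intron of Moca-cyp, 526 bp from its TSS. Replicate signals there were 46.6, 40.9 and 23.0, at ranks 3989, 8267 and 8702. Gfat2 and Moca-cyp are transcribed away from each other with 568 bp between them, so these summits cannot be assigned to larp by distance.

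S6k had 3 IDR summits, and the strongest was not at its TSS. The gene lies on the minus strand of 3L, at 5797549 to 5810931, with 1 TSS. The strongest summit, at 5808313 (signal 212, rank 2108), was in an intron, 2618 bp downstream of the TSS. The strongest overlapping peaks had signals of 53.5, 91.1 and 98.5, at ranks 3158, 2196 and 876. In replicate 1 the peak with the nearest summit was a different one, with a signal of 14.3, because the stronger peak had its summit 131 bp away. The printed window held none of the 11 motifs.

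A further intronic S6k summit, at 5802205 (signal 141, rank 4124), was 8726 bp downstream of the TSS and 828 bp upstream of the TSS of another coding gene, CG42272. Replicates gave 46.9, 72.9 and 21.0, at ranks 3947, 3268 and 9879. The S6k TSS itself had a weak summit, at 5810676 (signal 113, rank 5848), in the 5′ untranslated exon and 255 bp downstream of the TSS. Its strongest overlapping peaks had signals of 31.6, 46.1 and 39.7, at ranks 7363, 6925 and 4016. Divided by the median of each list, these were 1.71, 1.84 and 2.38, a mean of 1.98 ± 0.357 (SD, n = 3). Only replicate 3 placed it among its strongest 6110, through a peak with its summit 134 bp away. The replicate 3 peak with the nearest summit had a signal of 20.5 at rank 10253. By nearest summit, no replicate placed it that high, and the mean signal was 32.7 ± 12.9 (SD, n = 3). Leaving out any 1 replicate, and asking for overlap in both others, lost this TSS summit. It was also 297 bp from the TSS of kri, which is transcribed in the opposite direction with 41 bp between the genes, so the start sites of S6k and kri cannot be told apart as its source.

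**Figure D2:**
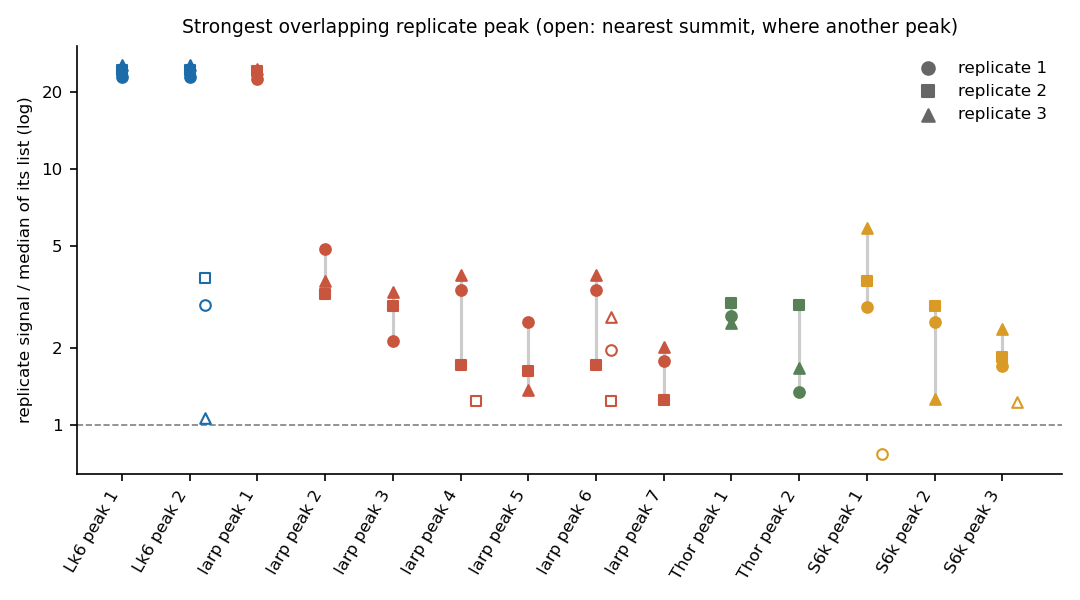
Signal of the replicate peaks at the 14 IDR peaks, divided by the median of the replicate's own list (y, log scale). Filled symbols are the strongest overlapping peak in each of 3 replicates, open symbols the peak with the nearest summit where that is another peak, and the dashed line is the list median. The first peaks of Lk6 and larp average 24.2 and 23.7 list medians with little spread, and the filled symbols of the second Lk6 peak are the same replicate peaks as those of the first.

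Thor, on the plus strand of 2L at 3478434 to 3479612, had no IDR summit at its TSSs. It had 2 in its 3′ flank, and both lay in an intron of CG15414. The stronger, at 3482861 (signal 161, rank 3335), was 4339 bp from the nearer Thor TSS and had replicate signals of 49.5, 75.0 and 41.8, all among the strongest 6110. The other, at 3482236 (signal 124, rank 5091), was 3714 bp away, with 24.9, 74.0 and 27.8, and only replicate 2 placed it that high.

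At the Thor TSS a peak fell 26 ranks short of the IDR list. It stood at rank 6136 of the pooled list with a signal of 109.309 and its summit at 3478426, 8 bp upstream of the TSS. The last peak inside the IDR list had 109.514 and the first outside had 109.505. Replicate 1 listed a peak 14 bp downstream of the TSS (signal 30.8, rank 7666) and replicate 2 one 31 bp upstream (63.5, rank 4147). Replicate 3 had no peak that close, and its strongest within 1 kb lay 840 bp upstream with a signal of 14.4, at rank 17472. The replicates therefore differed in whether the start of Thor was listed. The upstream sequence printed above holds 6 matches of the GAGA factor repeat, 2 that overlap and 4 in a second group further downstream. It also holds a match of TATAAA.

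Tor had no IDR summit, and the replicates disagreed at its start. The annotation calls the gene mTor. It lies on the plus strand of 2L at 13004480 to 13013197 and is distinct from torso, whose symbol differs in case only. Replicate 1 listed a peak 246 bp upstream of the TSS with a signal of 61.7 at rank 2469, and replicate 3 one 197 bp upstream with 76.1 at rank 1433. Replicate 2 and the pooled list had no summit anywhere in the gene or within 5 kb of it. The nearest pooled summits were 22234 bp to the left of the gene and 6048 bp to the right.

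Such a loss was rare among peaks that 2 replicates both placed in their strongest 6110. Of 4606 peaks among the strongest of replicate 1 that overlapped one of the strongest of replicate 3, 35 (0.760%) overlapped no pooled peak and 61 (1.32%) overlapped no peak of replicate 2. Both held for 25 of them (0.543%), the Tor peak included. The share missing from the pooled list and the remaining replicate was 0.191% for replicates 1 and 2. For replicates 2 and 3 it was 0.0689%. What removed the Tor peak from replicate 2 and the pooled list was not tested. The 36-base words of the window were each found once in the assembly, as were those of the windows at the 14 IDR summits. The same summits lay 127 and 176 bp from the TSS of Vha68-1, a proton pump subunit gene on the opposite strand, which starts 372 bp away from Tor, so the peaks cannot be assigned to one of the pair.

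eIF4E1, on the minus strand of 3L at 9399618 to 9402460, had no IDR summit. It is 2843 bp long and has 4 TSSs. The strongest pooled peak at a TSS stood at rank 9531, with a signal of 79.2 and its summit 144 bp downstream of the start. Replicate 1 listed a peak at rank 6799 (33.5) and replicate 2 at rank 5181 (55.5). Replicate 3 listed none within 1 kb. The pooled list held 6 summits in the span of the gene, all below the IDR threshold.

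**Figure D3:**
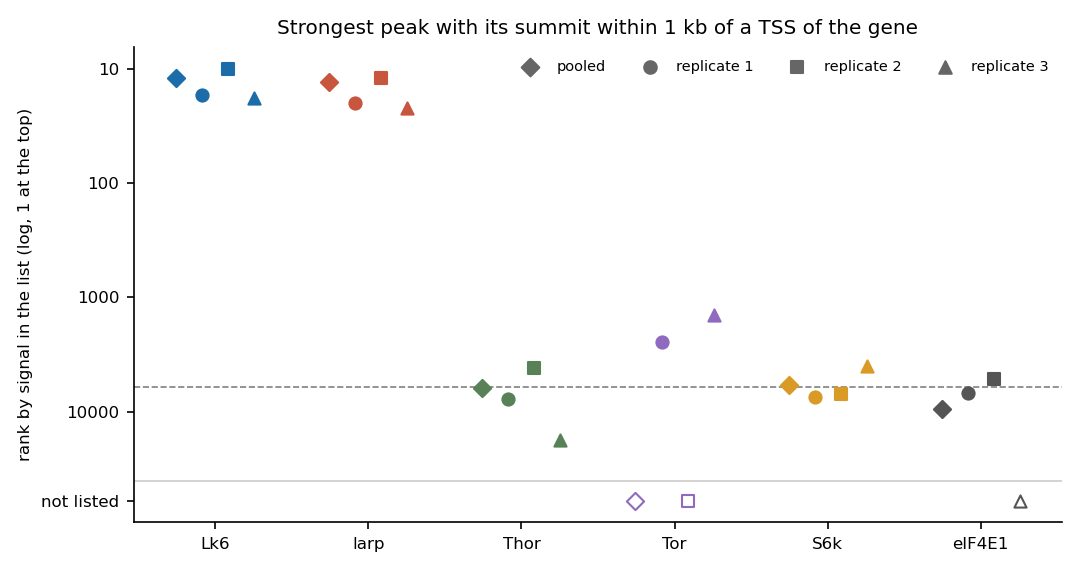
Rank by signal (y, log scale with rank 1 at the top) of the strongest peak with its summit at most 1 kb from a TSS of each gene, in the pooled list and 3 replicate lists. The dashed line is rank 6110, the length of the IDR list, and open symbols at the bottom mark lists with no such peak. Lk6 and larp stay between ranks 10 and 22 in all 4 lists, while Tor and eIF4E1 are missing from at least 1.

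Across the 6 genes, 3 (Lk6, larp and S6k) had an IDR summit no more than 1 kb from a TSS, a property of 19.2% of coding genes. In the gene with 5 kb each side, 4 of 6 had a summit, against 45.3% of coding genes. As the genes were chosen from these lists, nothing is read from either count. The replicates' strongest 6110 peaks gave different genes. In replicate 1 the genes with such a TSS summit were Lk6, larp and Tor (3 of 6, background 19.6%). In replicate 2 they were Lk6, larp, Thor and eIF4E1 (4 of 6, background 19.2%), and in replicate 3 Lk6, larp, Tor and S6k (4 of 6, background 19.3%). Only Lk6 and larp were in all 3. At any rank of the pooled list, 5 of 6 genes had a TSS summit, against 46.2% of coding genes.

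By position, 6 of the 14 summits were within 1 kb of a TSS of the gene, 4 were elsewhere in an intron and 4 in the flanks. Only 1 lay in an exon, the S6k summit. For 3 of the 14 the nearest coding TSS belonged to another gene, and the 14 formed 12 separate regions. The shares of all IDR summits in these positions are not given here, so nothing is read from these counts. The 14 ranged from rank 12 to rank 5916, with a median of 3324.5, and the median rank of the whole list was 3055.5. Below rank 3055, where 50% of all IDR peaks lie, were 10 of the 14. In all 3 replicates, 7 of the 14 overlapped one of the strongest 6110 peaks, a property of 63.5% of all IDR peaks. When the overlapping peak with the nearest summit was taken instead, it was 5 of the 14. The share of all IDR peaks by that rule is not given here. Leaving out replicate 1, 2 or 3 and asking for overlap in both others kept 7, 9 and 8 of the 14. No share of all IDR peaks is given beside these, and nothing about the genes is read from them.

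The 14 windows had a GC content of 27.4% to 53.7%, with a median of 36.1%, next to 36.3% for all IDR windows. Beside the GAGA factor repeat and the FOXO site, the search covered 9 motifs. The letters TATAAA, searched for the TATA box, occurred in 30.8% of IDR windows. The GATA site AGATAA occurred in 13.3% of them, and the EcR element AGGTCA in 3.67%. The Ets core was searched as CCGGAA and found in 2.93%, and the E-box CACGTG was found in 1.83%. The AP-1 site was searched as TGACTCA, with a share of 1.75%. The DREF element TATCGATA had a share of 1.1%. For the Zelda site CAGGTAG the share was 0.802%. The M1BP core GGTCACACT was in 0.491% of windows. Both strands were read. No motif was found in 7 of the 14 windows, and the same was true of 32.9% of IDR windows. GAGAG occurred in both Lk6 windows, TATAAA in 2 of larp and 1 of Thor, and AGATAA in 2 of larp. At the TSS peaks outside the IDR list, the eIF4E1 window had 6 GAGAG matches.

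Other genes of translation and TOR signalling were counted from 8 lists, in which 71 genes were distinct. Of these, 22 had an IDR summit up to 1 kb from a TSS (31.0%, against 19.2% of coding genes), and 43 had one in the gene with 5 kb each side (60.6%, against 45.3%). For 10 of the 22, the TSS of another coding gene was also within 1 kb of the strongest such summit. When each replicate list was cut to its strongest 6110 peaks, 15 of the 22 kept a TSS summit in every list. The others kept one in 2 of the 3 lists. The lists were chosen with earlier results of these data known. They were not tested against other genes, and nothing is read from these shares or from those by list below.

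Sesn, a stress-induced inhibitor of TORC1, had the strongest TSS peak of the 22 genes, with a signal of 1021 at rank 42, with CG46429 starting within 1 kb of it. REPTOR, the transcription factor that TORC1 keeps inactive, had 817 at rank 84 and no other coding TSS within 1 kb. Lamtor3, a subunit of the lysosomal Ragulator, had 824 at rank 81 and shares its start region with fws. Wdr24, of the GATOR2 complex, had 400 at rank 605 and shares its own with IntS11. Among TOR complexes and their regulators, 6 of 13 had a TSS summit (46.2%, against 19.2% of coding genes). Among them were the TORC1 inhibitors scyl (signal 207), chrb (191) and PRAS40 (211), with no other coding TSS within 1 kb of the summit. The summit counted for the TORC1 subunit raptor (156) lay at -859 bp relative to its TSS (upstream), and Mipp2 and Nep1 also start within 1 kb of it. The 6th was Tctp (139), which shares its start region with SdhC. Neither Tsc1 nor gig, the TSC complex that restrains Rheb, had any summit in its span. In the amino acid sensing list, that of Sesn, Lamtor3 and Wdr24, 3 of 16 had a TSS summit (18.75%). This was close to the 19.2% of all coding genes.

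Among cap-binding and eIF4F genes, 5 of 16 had a TSS summit (31.25%, against 19.2% of coding genes). The strongest was at eIF4EHP, a cap-binding protein that represses translation (890, rank 64), which shares its start region with CG18428. It was followed by pAbp, the poly(A)-binding protein (381, rank 680). The helicase eIF4A (111) was weaker, as were eIF4H1 (196, shared with CG34015) and eIF4G2 (131, shared with CG33111), and the scaffold eIF4G1 had none. The kinases above S6k, Akt (261) and Pdk1 (178), and the elongation factor eEF2 (122) made 3 of 6 (50%). The ribosomal protein RpS6, the substrate after which S6k is named, had none.

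The integrated stress response list had 1 of 10 (10%, against 19.2% of coding genes), the transcription factor Xrp1 (121). The La-related list had 0 of 3. Of larp and these 3, only larp thus had a TSS summit in the IDR list. In 2 of the replicate lists, cut to the length of the IDR list, Larp4B also had a TSS summit. The span of Larp4B held 2 IDR summits. Of the MAP kinases that activate Mnk kinases in mammals, 2 of 4 had a TSS summit. They were p38a (577, shared with CG6178) and p38b (197, shared with CG9008), while p38c and rl, the fly ERK, had none. Among the transcription factors known at Thor, Atf3 (453) and foxo (146) had one, and crc and Myc had none. The gene crc was in 2 lists and was counted once.

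**Figure D4:**
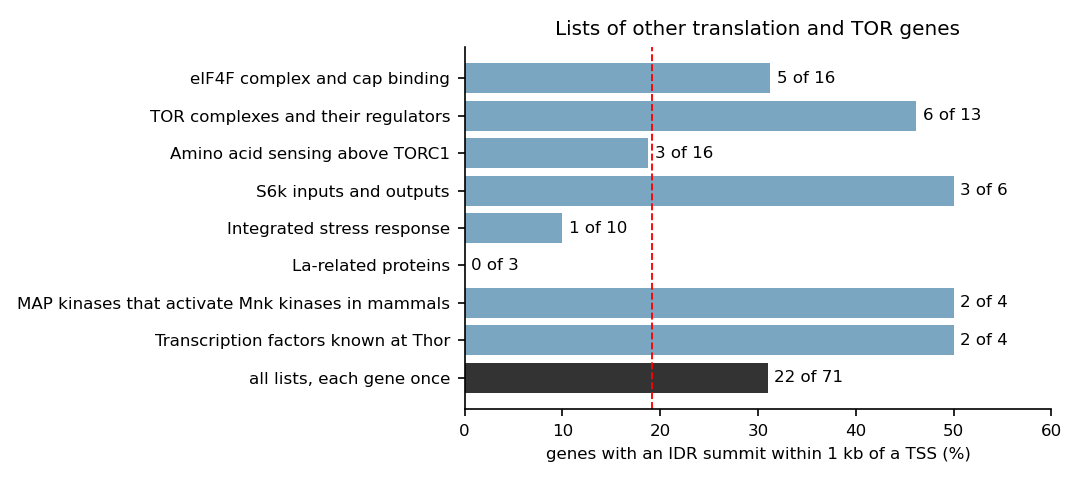
Share of genes in each of 8 lists, and in all 71 genes, with an IDR summit at most 1 kb from a TSS (x, %). Numbers at the bars are genes with a summit of genes in the list, and the red dashed line is the share of all coding genes (19.2%). Small lists move by large steps, as with the 0 of 3 La-related genes.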

How the data were processed

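Chromatin immunoprecipitation was sequenced for 3 biological replicates of 1 group, from chromatin sonicated to 200 to 800 bp per the labels. As input for IDR, the authors deposited 1 dm6 list per replicate and 1 of the pooled replicates, and from these 1 IDR-thresholded list. In each deposited list, the authors give every peak a signal (enrichment on the scale of that list), a −log10 q-value and a summit offset. The −log10 q-value shared a maximum in 87.1% of IDR peaks, and ranks are therefore by signal. The IDR list held exactly the 6110 strongest peaks of the 30000 in the pooled list, with equal signals. Replicate lists held 30000, 30000 and 27893 peaks, with median signals of 18.5, 25.0 and 16.7, so signal levels are not comparable between lists. For the aligner, peak caller and IDR threshold, the sources used here give nothing, and the depth is unknown. The dm3 lists were not used.

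Summits were placed on gene models of Ensembl release 115 (dm6, 1-based coordinates), and sequence was read from the RefSeq copy of that assembly. A TSS summit lay within 1000 bp of any annotated TSS of the gene, and a span was the gene with 5 kb each side. Replicate values are the strongest peak that overlaps the IDR peak by at least 1 base. Motif windows reached 100 bp to each side of a summit. The placement was tested on simulated data. The work used pandas 2.3.3, numpy 2.4.6 and biopython 1.88 under Python 3.11.15, with matplotlib 3.10.9. The members, the 8 lists, the motifs and the alternatives were chosen with earlier results of these data known. Named genes were the 6 members, the list genes with a TSS summit, genes that start within 1 kb of a member's summit and neighbours of a member in the ranking. The list genes named without a TSS summit were picked after their values were seen. Alternatives were other TSS distances and flanks, stricter peak sets, other overlap rules and leaving out each replicate.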

Additional observations from a re-analysis of the deposited data

How the results depend on the processing

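Of the 6 genes, the count with a TSS summit went from 3 to 2 under several settings. At 500 bp Lk6 was lost, since its summit lies 984 bp upstream of a TSS. In the upper part of the ranking (the stronger 50% of IDR peaks), with overlap of strong peaks in all 3 replicates, and without replicate 1, 2 or 3, S6k was lost. The larp gene had a summit in all of these settings. The 14 summits fell to 4 in the upper part, to 7 with overlap in all 3 replicates, and to 7 to 9 when 1 replicate was left out. They numbered 10 with 2 kb each side and 17 with 10 kb. Among coding genes, 2682 had a TSS summit, 1598 in the upper part and 1746 with overlap in all 3 replicates. The pathway genes ranged from 15 to 29 around 22. The settings that keep fewer peaks lower all these counts by construction.

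No paired analysis was possible because there was 1 group. The number of reads behind each list is unknown, so whether a peak missing from a replicate, as at Tor and eIF4E1, reflects depth was not tested.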
